A study of Mus musculus with 4 samples.

Results

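Red blood cell transcripts were examined in RNA sequencing counts of whole uteri from pregnant mice. The 9 genes are the adult alpha globins Hba-a1 and Hba-a2, the adult beta globins Hbb-bs and Hbb-bt, and the embryonic globins Hbb-y, Hbb-bh1 and Hba-x. The erythroid genes Alas2 and Slc4a1 complete the set. They were listed by name, with no threshold on their levels, and are 9 of the 55421 genes counted. All were found under their GRCm38 symbols.

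The study compared the uterus of 2 WT mice (strain C57BL/6J) with that of 2 Qa-2- mice (strain B6.Cg-H2b3/FlaCmwJ, also named B6.K1) at gestational age E18.5. Matings were syngeneic, so that mother and fetuses shared the genotype. Qa-2 is a nonclassical MHC class I antigen, and the study used its absence as a model for lack of HLA-G in pregnancy. The strain is a congenic line that lacks Qa-2 in every cell, and WT and Qa-2- mice came from different vendors. Each library was made from mRNA of a piece of frozen uterus of 1 mouse, and strain, genotype and vendor cannot be told apart.

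Total counts lay between 33286390 and 41041299 per library, so that 3 counts, the limit allowed by a count of 0, correspond to 0.0731 to 0.0901 CPM, the count scaled by the library total. Intervals and limits given here cover counting error only. The Qa-2 gene H2-Q7 had 6318 and 1251 counts in WT mice and 4 and 2 counts in Qa-2- mice. All 11 uterus markers were above 3 counts in each library. Qa-2- replicate 1 stood apart by its yolk sac markers (572.2 CPM in sum) and WT replicate 2 by its trophoblast markers (26.0 CPM in sum), and the adult globins are also given without these libraries.

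Haemoglobin is a tetramer of alpha-like and beta-like globin chains that carry haem. In the mouse embryo, the first red cells arise in the yolk sac and express the embryonic chains beside adult ones, whereas red cells of the fetal liver and of the adult bone marrow express the adult chains. Late in gestation the fetal circulation is dominated by cells from the fetal liver, so adult globin transcripts do not separate blood of the mother from late fetal blood. Globin mRNA in tissue comes mainly from reticulocytes, the young red cells that still hold RNA.

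The beta-like genes lie on chromosome 7 (GRCm38) on the minus strand, with Hbb-bt at chr7:103812524-103813996, Hbb-bs at chr7:103826534-103828096, Hbb-bh1 at chr7:103841637-103843164 and Hbb-y at chr7:103851749-103853216. The alpha-like genes lie on chromosome 11 on the plus strand, with Hba-x at chr11:32276400-32278116, Hba-a1 at chr11:32283511-32284465 and Hba-a2 at chr11:32296489-32297298. Slc4a1 is at chr11:102348824-102366203 on the minus strand and Alas2 at chrX:150547375-150570638 on the plus strand.

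The adult copies are near duplicates of each other, which bears on how their reads could be counted. The coding sequences of Hba-a1 and Hba-a2 differ at 1 of 429 positions, and those of Hbb-bs and Hbb-bt at 1 of 444. Windows of 100 bases were taken along the longest coding GENCODE transcript of each gene. Of these, 56.5% of Hba-a1, 74.5% of Hba-a2, 62.6% of Hbb-bs and 54.8% of Hbb-bt recur unchanged in the other copy. Read pairs with several positions were not counted by the authors, so counts of the 4 adult globins can be too low by an amount that differs between copies, and the split between copies is uncertain. No such window of Hbb-y, Hbb-bh1, Hba-x, Alas2 or Slc4a1 recurs in another gene's transcript. Hbb-bs shares 74.3% of aligned coding bases with Hbb-y and 74.6% with Hbb-bh1, and Hba-a1 shares 64.1% with Hba-x.

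Promoters are shown for genes with many counts and for genes with none, so that their short elements can be compared. The 150 bases before the RefSeq start (GRCm38.p6) are given for Hbb-bs (chr7:103827929-103828078, minus strand), Hba-a1 (chr11:32283522-32283671, plus strand), Alas2 (chrX:150547267-150547416, plus strand), Hbb-y (chr7:103853208-103853357, minus strand) and Hba-x (chr11:32276450-32276599, plus strand). Capitals mark the element CACCC, the element GATA, the element CCAAT and the element TATAAA on either strand, and neighbouring elements run together in capitals.
Hbb-bs: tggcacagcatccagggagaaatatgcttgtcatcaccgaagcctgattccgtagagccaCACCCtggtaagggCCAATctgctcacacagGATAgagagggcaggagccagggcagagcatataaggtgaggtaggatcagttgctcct
Hba-a1: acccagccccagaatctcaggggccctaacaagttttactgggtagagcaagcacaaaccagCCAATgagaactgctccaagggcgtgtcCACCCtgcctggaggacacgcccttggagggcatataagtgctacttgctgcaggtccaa
Alas2: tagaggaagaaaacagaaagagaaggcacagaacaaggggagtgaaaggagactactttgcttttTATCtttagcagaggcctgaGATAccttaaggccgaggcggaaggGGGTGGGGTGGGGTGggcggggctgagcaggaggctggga
Hbb-y: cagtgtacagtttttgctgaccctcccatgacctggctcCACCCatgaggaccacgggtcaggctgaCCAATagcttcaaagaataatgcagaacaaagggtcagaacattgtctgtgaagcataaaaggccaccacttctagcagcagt
Hba-x: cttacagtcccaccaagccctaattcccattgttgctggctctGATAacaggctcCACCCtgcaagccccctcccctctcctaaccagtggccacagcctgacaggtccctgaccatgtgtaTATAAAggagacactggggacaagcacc

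In the 250 bases before the start, all 6 globin genes with a promoter in the table held CACCC and GATA, 5 of 6 held CCAAT (not Hba-x) and 2 of 6 held TATAAA (Hbb-bt and Hba-x). CACCC was found in 51.3%, GATA in 54.1%, CCAAT in 34.5% and TATAAA in 13.0% of all 27025 RefSeq promoters of this length. CCAAT and CACCC together were found in 17.0%. Hbb-y, whose count was 0 in each library, held CACCC, GATA and CCAAT as Hbb-bs did. The Hba-a1 and Hba-a2 promoters shared an unbroken run of 247 of 250 bases, and Hbb-bs and Hbb-bt one of 14 bases. The annotation used for counting begins Hbb-bs, Hba-a1, Hba-x, Alas2 and Hbb-y at other positions than RefSeq, so these stretches lie partly or wholly inside the counted gene.

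Adult globin transcripts were present in each uterus and were higher in both WT mice than in both Qa-2- mice. Summed over the 4 genes, the level was 345.1 CPM in WT replicate 1, 671.4 CPM in WT replicate 2, 112.3 CPM in Qa-2- replicate 1 and 76.8 CPM in Qa-2- replicate 2. The groups did not overlap, with a ratio of 3.07 between the lower WT and the higher Qa-2- library. The group means were 508.2 CPM ± 230.7 (SD, n = 2) and 94.6 CPM ± 25.1 (SD, n = 2), a 5.37-fold difference (2.43 on the log2 scale). The two-sided exact permutation test gave p = 0.333, the smallest value that 2 against 2 mice can give. WT replicate 2 stood 1.95-fold above WT replicate 1, and Qa-2- replicate 1 stood 1.46-fold above Qa-2- replicate 2. In tissue samples of this kind, fewer red cells and less RNA per red cell cannot be told apart.

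Globins took a small part of all counts. The summed adult genes made up 0.0345% and 0.0671% of counts in the WT libraries and 0.0112% and 0.00768% in the Qa-2- libraries. Leaving the globin genes out of the library sizes left the log2 ratio at 2.43.

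**Figure D1:**
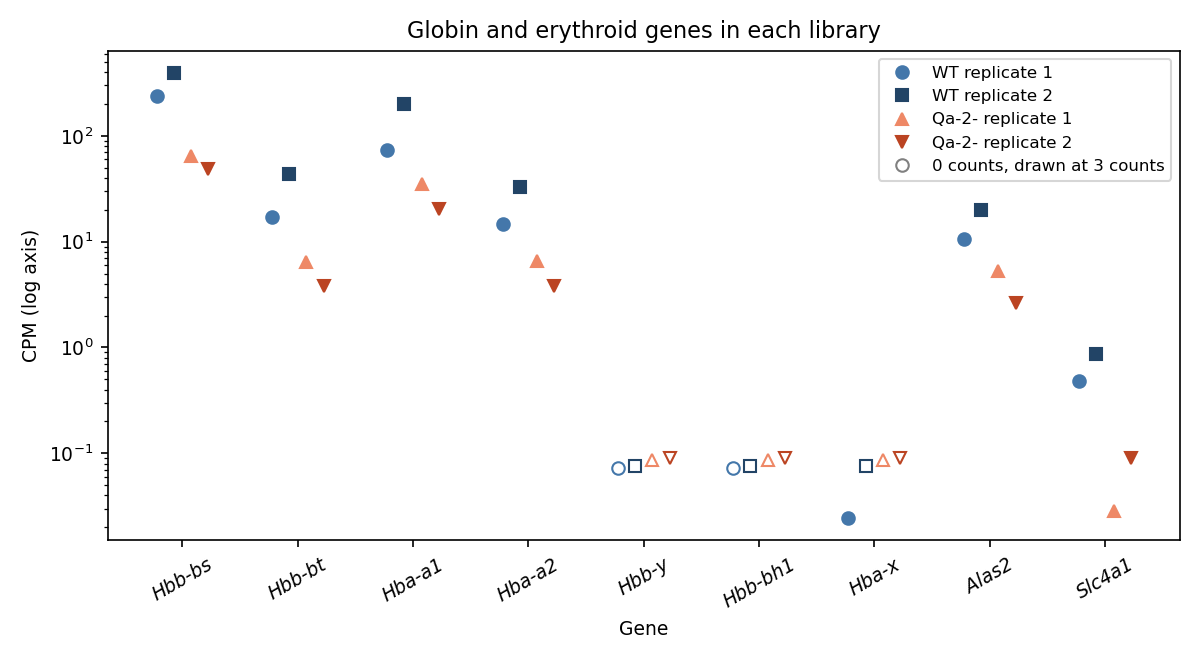
Level of each of the 9 genes in CPM (log axis) in the 4 libraries, with open symbols for genes with 0 counts, drawn at the level of 3 counts. Hbb-bs reached 240.2 and 393.2 CPM in WT mice and 64.4 and 48.8 CPM in Qa-2- mice, and Hbb-y and Hbb-bh1 had no count in any library.

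Hbb-bs, an adult beta globin gene, had the highest counts of the set. It had 9859 and 15491 counts in WT mice (240.2 and 393.2 CPM) and 2249 and 1626 counts in Qa-2- mice (64.4 and 48.8 CPM). Both WT libraries lay well above both Qa-2- libraries. The means were 316.7 CPM ± 108.2 (SD, n = 2) and 56.6 CPM ± 11.0 (SD, n = 2), a 5.59-fold difference. Per kilobase of gene length, Hbb-bs ranked 146 and 68 among all genes in the WT libraries and 446 and 661 in the Qa-2- libraries.

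Hbb-bt, the second adult beta globin gene, had 705 and 1719 counts in WT mice (17.2 and 43.6 CPM) and 226 and 127 counts in Qa-2- mice (6.47 and 3.82 CPM). The order of the 4 libraries was that of Hbb-bs. The means differed 5.91-fold, at 30.4 CPM ± 18.7 (SD, n = 2) and 5.14 CPM ± 1.88 (SD, n = 2).

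Hba-a1, an adult alpha globin gene, had 3001 and 7943 counts in WT mice (73.1 and 201.6 CPM) and 1216 and 677 counts in Qa-2- mice (34.8 and 20.3 CPM). Here the WT mice differed most from each other, and the lower WT library was still above both Qa-2- libraries. The means were 137.4 CPM ± 90.8 (SD, n = 2) and 27.6 CPM ± 10.2 (SD, n = 2), a 4.98-fold difference. Its duplicate Hba-a2 had 599 and 1299 counts in WT mice (14.6 and 33.0 CPM) and 231 and 127 counts in Qa-2- mice (6.61 and 3.82 CPM). Again no library of a group reached into the other group. The means of Hba-a2 were 23.8 CPM ± 13.0 (SD, n = 2) and 5.22 CPM ± 1.98 (SD, n = 2), a 4.56-fold difference.

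Alas2 encodes the erythroid form of the first enzyme of haem synthesis. It had 436 and 782 counts in WT mice (10.6 and 19.8 CPM) and 186 and 88 counts in Qa-2- mice (5.33 and 2.64 CPM), with the libraries in the order of the globins. The means were 15.2 CPM ± 6.52 (SD, n = 2) and 3.98 CPM ± 1.90 (SD, n = 2), a 3.82-fold difference. Slc4a1 encodes band 3, the anion exchanger of the red cell membrane, and had 20 and 34 counts in WT mice and 1 and 3 counts in Qa-2- mice. The groups did not overlap, although the Qa-2- counts were at the floor. Summed over the mice of each group, 54 against 4 counts gave a rate ratio of 11.4 (exact 95% interval 4.22 to 43.5), which leaves out the spread between mice.

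In the edgeR quasi-likelihood test with Benjamini-Hochberg adjustment, 0 of 14492 genes (0%) passed an adjusted p of 0.05, and hence none of the 9 genes. Without adjustment, 1172 genes higher in WT mice and 1027 higher in Qa-2- mice had p below 0.05, and DESeq2 called 700 genes after adjustment. Of the 9 genes, 5 passed the filter on low counts, namely the 4 adult globins and Alas2, while Slc4a1 and the 3 embryonic globins did not.

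In this test the log2 fold change, with WT over Qa-2-, was 2.58 ± 0.34 (SE) for Hbb-bs, 2.66 ± 0.55 for Hbb-bt, 2.41 ± 0.57 for Hba-a1, 2.28 ± 0.51 for Hba-a2 and 2.02 ± 0.49 for Alas2. Adjusted p-values of edgeR were 0.244 for Hbb-bs, 0.246 for Hbb-bt and Hba-a2, and 0.255 for Hba-a1 and Alas2. Ranked from the highest fold change of WT over Qa-2-, these genes stood between place 60 (Hbb-bt) and place 123 (Alas2) of 14492. All 5 had an unadjusted edgeR p below 0.05 with higher levels in WT mice, beside 8.09% of all genes tested. For all 5, both WT libraries lay above both Qa-2- libraries, beside 25.4% of all genes tested. The 4 libraries had the same order in all 5 (WT replicate 2, WT replicate 1, Qa-2- replicate 1, Qa-2- replicate 2), which 6.35% of all genes tested shared.

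DESeq2 called all 5 higher in WT mice, beside 2.79% of genes, with adjusted p between 5.76e-11 (Hbb-bs) and 0.00301 (Alas2). Without a filter, edgeR called Hbb-bs (adjusted p = 0.0134) and Hbb-bt (adjusted p = 0.0480), beside 0.166% of genes called higher in WT mice. In that fit Slc4a1 had a log2 fold change of 3.55 ± 0.95 (SE) and an adjusted p of 0.165. The size of the difference rested in part on WT replicate 2. Without this library the log2 fold change was 1.48 for Hba-a1, 1.56 for Hba-a2, 1.81 for Hbb-bt, 2.16 for Hbb-bs and 1.48 for Alas2, all still positive.

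Embryonic globin transcripts were at or near 0. Hbb-y, the epsilon-type chain, and Hbb-bh1, the beta-like chain of the earliest primitive red cells, had 0 counts in each of the 4 libraries. Their share was 0 of 10564 and 17210 beta-like globin counts in WT mice, which allows up to 0.0284% and 0.0174%. In Qa-2- mice it was 0 of 2475 and 1753 counts, which allows up to 0.121% and 0.171%. Over all libraries the share was 0 of 32002 counts, with a limit of 0.00937%.

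Hba-x, the embryonic zeta-type alpha chain, had 1 count in WT replicate 1 and 0 counts in the other 3 libraries. In WT replicate 1 this was 0.0278% of 3601 alpha-like globin counts (exact 95% interval 0.000703% to 0.155%). The 0 counts of WT replicate 2, Qa-2- replicate 1 and Qa-2- replicate 2 stood against 9242, 1447 and 804 alpha-like counts and allow up to 0.0325%, 0.207% and 0.373%. A difference in embryonic share between the groups was not detectable at this depth, and with at most 1 embryonic count the exact permutation test carries no information.

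Markers of tissues that hold fetal blood did not order the libraries as the globins did. The summed level of 14 trophoblast markers was 0.731 and 26.0 CPM in WT mice and 7.73 and 0.361 CPM in Qa-2- mice, with 6 to 10 of the markers at 0. The 7 yolk sac markers summed to 9.48, 51.6, 572.2 and 35.0 CPM in the same order of libraries. The 5 hepatocyte markers, which also mark fetal liver and overlap in expression with yolk sac, summed to 1.68, 6.65, 35.8 and 3.42 CPM. Qa-2- replicate 1 had the highest yolk sac and hepatocyte sums, and Hbb-y, Hbb-bh1 and Hba-x were at 0 there. With only WT replicate 1 and Qa-2- replicate 2, the libraries lowest in trophoblast markers, the log2 ratio of summed adult globins was 2.17. This pair was chosen after the data were seen.

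Summed markers of other blood cells overlapped between the groups. The 11 platelet markers summed to 31.0 and 39.5 CPM in WT mice and 34.0 and 29.95 CPM in Qa-2- mice. Of the 3 platelet markers that passed the filter, Pf4 (log2 fold change 0.60) was higher in both WT mice, and Ppbp (-0.75) and Itga2b (-0.50) were lower in both, with edgeR adjusted p of 0.347, 0.403 and 0.381. The sums of B cell markers (5.60, 9.31, 5.44 and 7.03 CPM) and T cell markers (6.41, 6.83, 4.52 and 8.23 CPM) overlapped as well. The 12 neutrophil markers summed to 1329, 608.8, 427.2 and 5191 CPM, mostly Ltf, which uterine epithelium also expresses. Csf3r of this list was higher in both WT mice (log2 fold change 0.65, edgeR adjusted p = 0.412).

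Markers of the uterine wall moved in part with the globins. The 8 endothelial markers summed to 1220 and 1033 CPM in WT mice and 563.1 and 556.6 CPM in Qa-2- mice. All 8 were higher in both WT mice, beside 25.4% of all genes tested. Each had an unadjusted edgeR p below 0.05, beside 8.09% of all genes with such a p and higher levels in WT mice. Their median log2 fold change was 0.86. The 4 smooth muscle markers summed to 14991 and 24950 CPM against 14613 and 8176 CPM, with a median of 0.90. Of these, 3 of the 4 had the library order of the globins, beside 6.35% of all genes tested. The 3 epithelial markers had a median of -0.82. None of these genes passed the adjusted edgeR test, and their part in the globin difference was not tested. These 3 lists were written after the data had been seen.

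**Figure D2:**
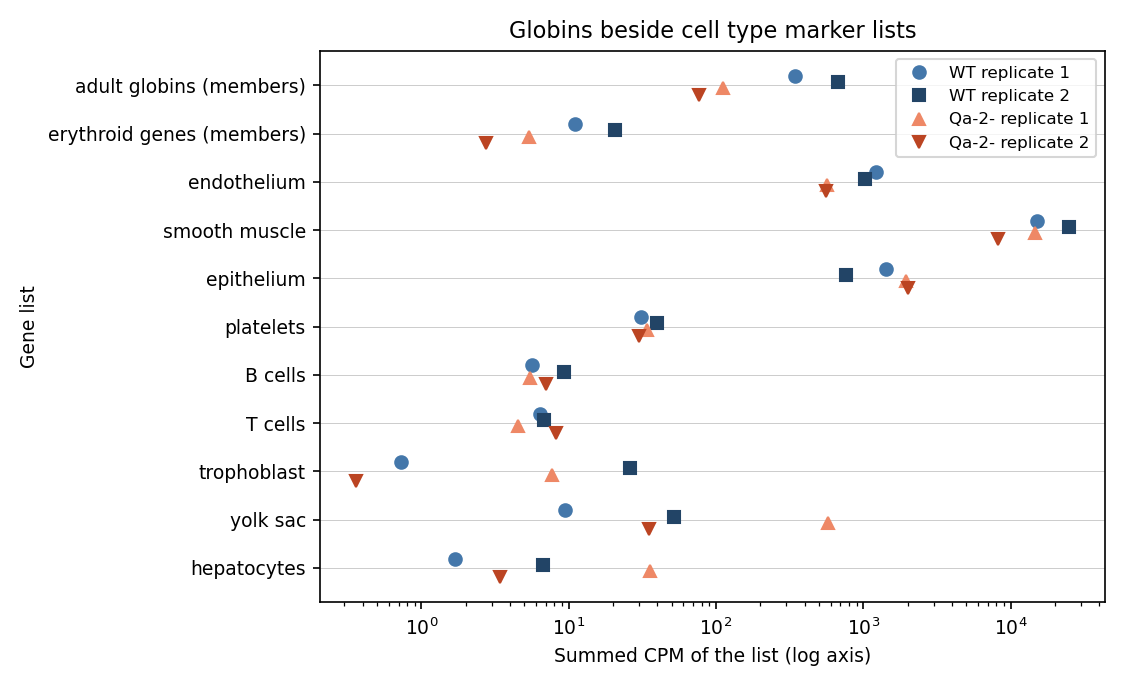
Summed CPM (log axis) of the adult globins, of Alas2 with Slc4a1 and of cell type marker lists in the 4 libraries. Adult globins spread 8.74-fold from the lowest to the highest library, whereas platelet markers lay between 29.95 and 39.5 CPM.

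The make-up of the red cell counts varied between mice of a group. Shares are of counts, not of molecules, and carry exact 95% intervals. Adult alpha globins made up 25.4% (24.7 to 26.1%) of adult globin counts in WT replicate 1 and 34.9% (34.4 to 35.5%) in WT replicate 2. They made up 36.9% (35.4 to 38.4%) in Qa-2- replicate 1 and 31.4% (29.6 to 33.3%) in Qa-2- replicate 2. WT replicate 1 thus lay below the other 3 libraries, outside their counting intervals, while the group means of 30.2% and 34.2% differed by less than the SD of the WT mice (6.73 percentage points, exact permutation p = 0.667).

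Hbb-bt took 6.67% and 9.99% of adult beta globin counts in WT mice and 9.13% and 7.24% in Qa-2- mice, and the groups overlapped. Hba-a2 took 16.6% and 14.1% of adult alpha counts in WT mice and 15.96% and 15.8% in Qa-2- mice, again with overlap. Alas2 took 2.99% and 2.87% of the counts of Alas2 and adult globins in WT mice and 4.53% and 3.33% in Qa-2- mice. The last groups did not overlap, at p = 0.333 in the exact permutation test, the smallest possible, and the interval of Qa-2- replicate 2 (2.68 to 4.08%) covered both WT values.

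**Figure D3:**
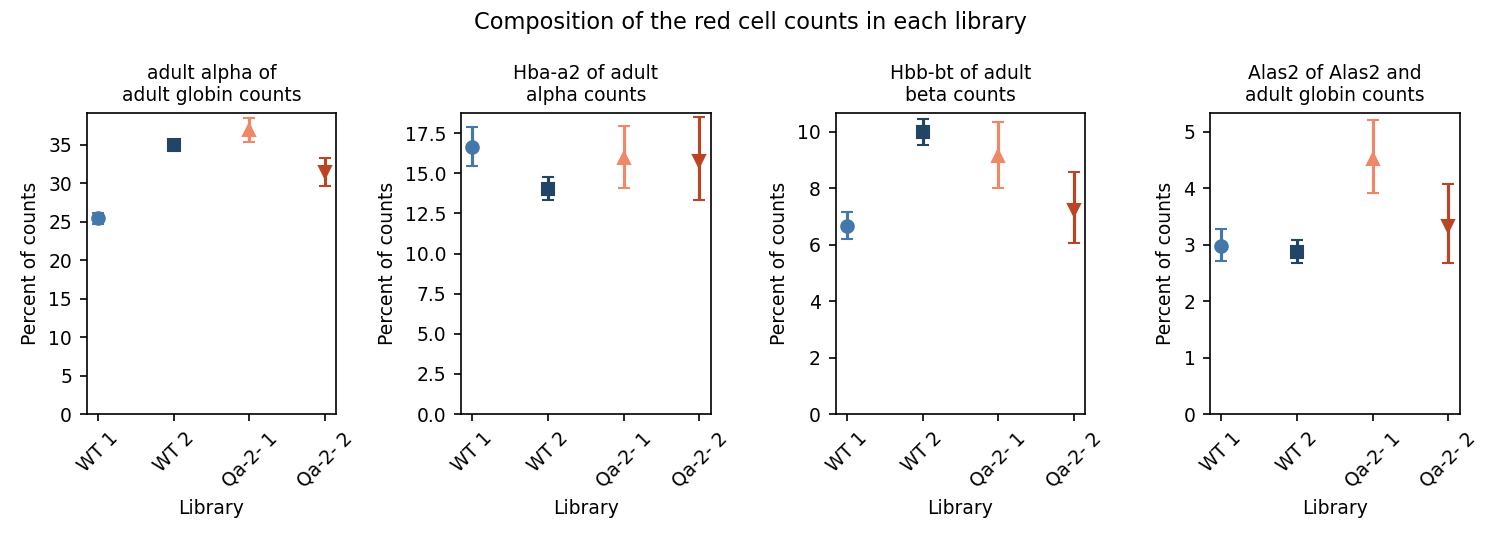
Share of counts (percent) in each library for adult alpha among adult globin counts, Hba-a2 among adult alpha counts, Hbb-bt among adult beta counts, and Alas2 among Alas2 and adult globin counts, with exact 95% binomial intervals as bars. The alpha share of WT replicate 1 (25.4%) lies below those of the other libraries (31.4% to 36.9%).

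Other globins differed less between the groups or were near the floor. Cygb, a globin of fibroblast-like cells, had 880 and 899 counts in WT mice and 508 and 566 in Qa-2- mice, with a log2 fold change of 0.59 and an edgeR adjusted p of 0.281. Ngb, the globin of neurons, had 17, 17, 13 and 8 counts and Mb, the globin of striated muscle, had 15, 21, 14 and 15 counts. The remaining genes of the clusters, Hbq1a, Hbq1b, Hbb-bh0 and Hbb-bh2, had at most 3 counts in a library.

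Other erythroid genes were taken as 4 lists, of which 53 genes were in the table and 33 passed the filter. Their median log2 fold change was 0.11, beside 0.01 over all genes tested, with 19 above and 14 below 0. An unadjusted edgeR p below 0.05 was reached by 5 higher in WT mice and 5 higher in Qa-2- mice, beside 1172 and 1027 of all 14492 genes tested. None passed the adjusted edgeR test, while DESeq2 called 7, beside 700 of all 14492 genes tested. Among the 7 were Dmtn, Lmo2 and Tal1, higher in WT mice, and Add2, Myb and Slc25a37, lower in WT mice. Over all genes, DESeq2 called 404 higher and 296 lower in WT mice.

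Genes of the red cell membrane and its skeleton had a median of 0.67 over 7 genes. Dmtn, which bundles actin in the membrane skeleton, was at 1.41, beta spectrin Sptb at 0.85 and ankyrin Ank1 at 0.78. The adducin subunit Add2 was at -2.25, protein 4.1 (Epb41) at -0.51 and the tetraspanin Tspan33 at -0.29. These genes are not particular to red cells. Of genes nearly confined to them, protein 4.2 (Epb42) had 2, 3, 0 and 0 counts, and Rhag 0 in each library.

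Haem synthesis and iron supply genes had a median of -0.08 over 12 genes, against 2.02 for Alas2. The glycine carrier Slc25a38 was at 0.23, the ferrireductase Steap3 at 0.21 and Urod at 0.13. The transferrin receptor Tfrc was at -0.83, the mitochondrial iron carrier Slc25a37 at -0.73 and Cpox at -0.61. Many of these enzymes and carriers, unlike Alas2, also serve haem and iron use outside red cells.

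Transcription factors and Epo signalling genes had a median of 0.31 over 7 genes. Lmo2 was at 1.37 and Tal1 at 1.02, both also expressed in endothelium, and the erythropoietin receptor Epor was at 0.80. Myb was at -1.15, Bcl11a at -0.18 and Ldb1 at 0.08. The erythroid regulators Gata1, with 10, 0, 1 and 4 counts, and Klf1, with 2, 10, 4 and 3 counts, were near the floor in every library.

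Red cell enzymes and genes of reticulocyte maturation had a median of 0.16 over 7 genes. Tent5c was at 0.41 and Bpgm, which makes the allosteric effector of haemoglobin, at 0.39. Car2 was at -0.05, Tmcc2 at 0.11 and Bnip3l, which clears mitochondria from reticulocytes, at 0.14. The other 8 genes of the list in the table did not pass the filter and showed no common order of the libraries. In WT replicates 1 and 2 and Qa-2- replicates 1 and 2, Trim10 had 15, 23, 2 and 2 counts, Tspo2 4, 3, 0 and 2, Icam4 16, 0, 4 and 5, and the red cell pyruvate kinase gene Pklr 6, 15, 59 and 9. Hemgn had 2, 0, 0 and 5 counts, Trim58 had 0, 0, 1 and 2, Cldn13 had 1, 0, 0 and 0, and carbonic anhydrase Car1 had none in any library.

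Genes for the clearance of haem and haemoglobin had a median of 0.35 over the 11 of 13 that passed the filter, and none passed the adjusted edgeR test. The haem transporter Slc48a1 was at 1.02 and was called by DESeq2 (adjusted p = 0.00497), the only such call among the 6 genes named here. Haem oxygenase Hmox1 was at 0.60 and the metal transporter Slc11a1 at 0.60. Haptoglobin (Hp) was at -1.18, the iron exporter ferroportin (Slc40a1) at -0.60 and Hmox2 at 0.15. Hmox1 had 79.3 and 41.4 CPM in WT mice and 35.7 and 49.4 CPM in Qa-2- mice, so the groups overlapped.

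**Figure D4:**
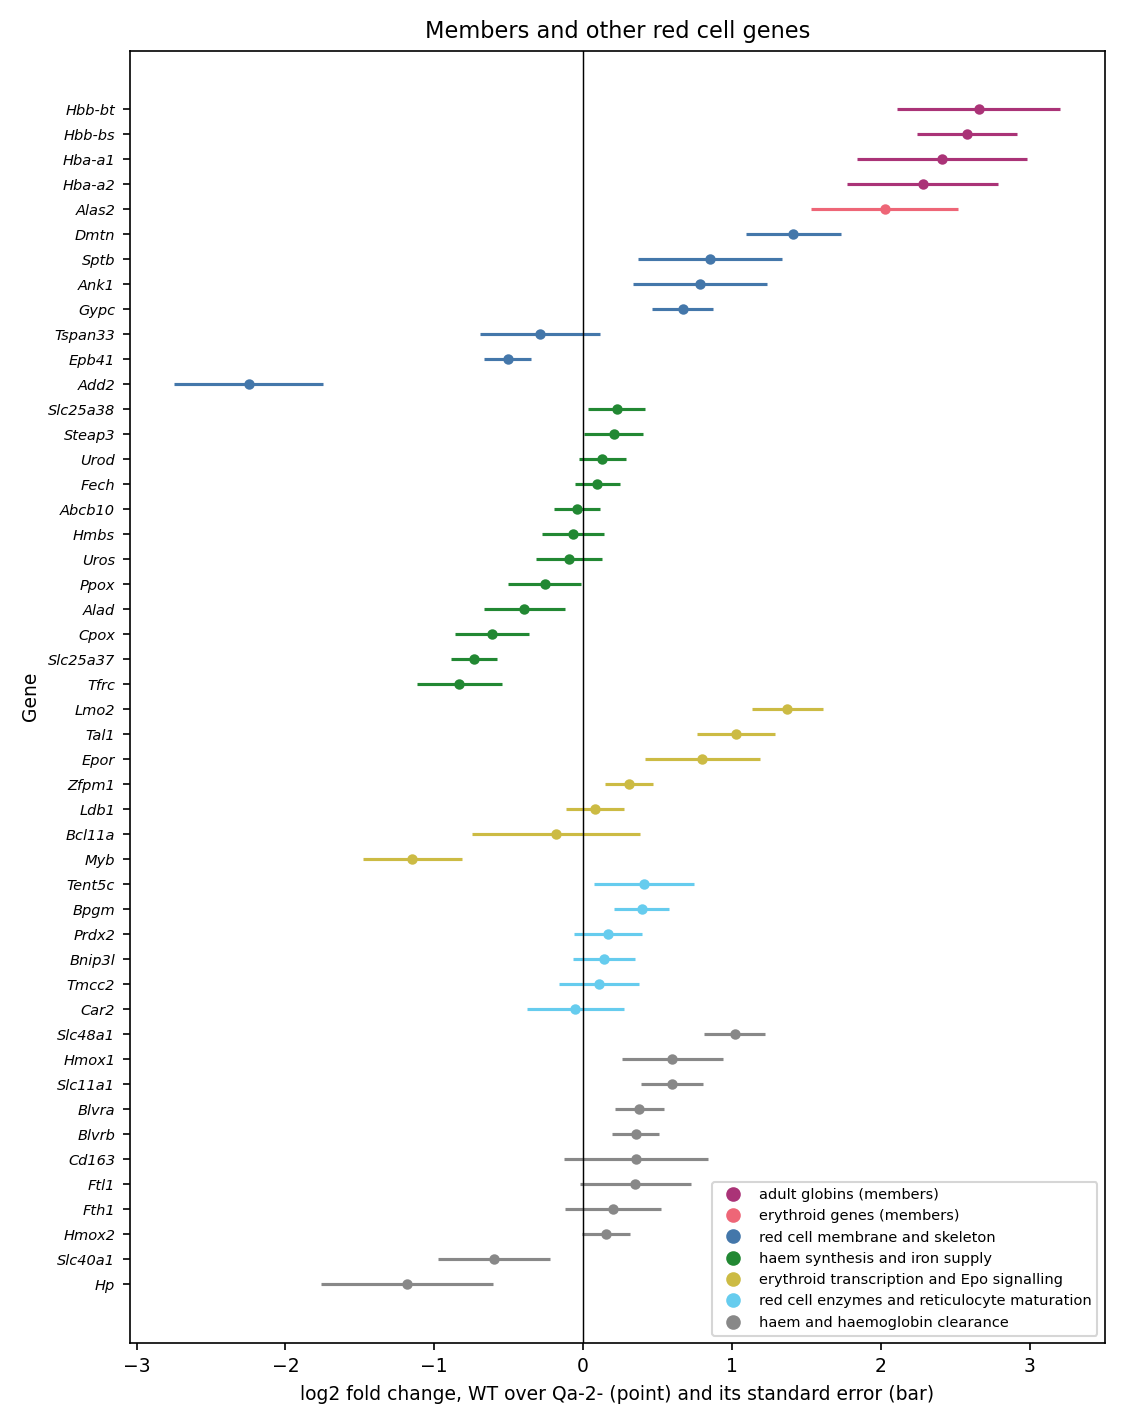
The log2 fold change from edgeR (points, WT over Qa-2-) with its standard error (bars) for the 5 members that passed the filter and for other genes of red cell structure, haem, transcription, enzymes and haem clearance. The members lie between 2.02 and 2.66, and the other genes drawn lie between -2.25 (Add2) and 1.41 (Dmtn).

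Genes whose levels over the 4 libraries were most like the summed adult globins were sought among all genes tested. The measure was the root mean square difference of centred log2 CPM over the 4 libraries, which had a median of 1.31 over the other genes. The adult globins lay between 0.110 (Hbb-bs) and 0.216 (Hba-a1), which is built in, since they make up the sum. Alas2, which is not in the sum, lay at 0.271. Among the 10 nearest were Ltbp2, a matrix protein, at 0.101, Rgs4, a regulator of G-protein signalling, at 0.155 and the transcription factor Atoh8 at 0.179. Uchl1, Akr1c14, Kcnip2, Smad9, Tceal3 and Ptprz1 were also among them, up to 0.279.

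Ltbp2 lay at 13.3 and 30.5 CPM in WT mice and 4.42 and 3.26 CPM in Qa-2- mice on the TMM scale. Likeness over 4 libraries rests on few points, and all values share these libraries and their scaling.

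Genes next to the alpha-like cluster lay near 0 on the log2 scale. Within 100000 bases, Snrnp25, Rhbdf1, Nprl3, Mpg and Sh3pxd2b passed the filter, with log2 fold changes between -0.47 and 0.31 (median -0.18), and 0 of 5 had an unadjusted edgeR p below 0.05. Next to the beta-like cluster no gene passed the filter.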

How the data were processed

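RNA of the uterus was sequenced in 2 WT and 2 Qa-2- mice on E18.5. Each mouse gave 1 library, and groups follow the strain stated for each library. The values are counts of read pairs per gene, deposited by the authors without normalization. The submitters' processing notes name STAR 2.7.3a, featureCounts 2.0.0 and GRCm38.p6. Per the file headers, both ends had to map with quality of at least 3, counting used the reverse strand, and pairs with several positions or genes were not counted. Of 55421 identifiers, 55154 were given a symbol and 267 were not. Totals were 33286390 to 41041299 counts per library.

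The filter of the methods was used (1 CPM or more in 2 or more libraries). It kept 14492 genes here, fewer than the paper reports after its filter, and the cause was not tested. The methods name no test for the transcriptome. Counts were normalized by TMM and tested with edgeR 4.0.16 (glmQLFit, glmQLFTest, legacy fit) in R 4.3.3, with Benjamini-Hochberg adjustment over all genes kept and a threshold of 0.05. The standard error is the log2 fold change divided by the square root of F. CPM values with an SD are on library totals. Shares have exact binomial intervals (scipy 1.17.1), and group differences of sums and shares were tested by exact permutation. Coding sequences were aligned with Biopython 1.88. The fit was checked on simulated data. Replicates differed by more than sampling noise (chi-square per gene of 188.4 in WT and 117.8 in Qa-2-). The edgeR and DESeq2 p-values set each difference against a spread between these samples that was estimated in part across genes.

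The genes, although listed by name with no threshold on their levels, and the lists were chosen with earlier results of these data known. Named were the 9 genes, other globins above 3 counts, the 3 highest and 3 lowest fold changes of each erythroid list and of the clearance list, marker sums, and the 10 genes nearest in pattern. Genes with restricted expression, single blood cell markers, the low globins, the DESeq2 calls and the cluster neighbours were named after their values were seen, as were the endothelial, smooth muscle and epithelial lists. Fam46c was matched as Tent5c, and the listed names Ahsp, Hbb-b1 and Hbb-b2 were not found among the counted genes. Of the genes this rule names, some are not reported here. As alternatives, the test was replaced by DESeq2 1.42.0, TMM by upper-quartile factors or by plain library totals, and the filter by none or by a minimum of 10 counts in each library. Further alternatives were globins left out of library sizes, a replicate block, other sets of copies or scaling for sums and shares, and each replicate left out.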

Additional observations from a re-analysis of the deposited data

How the results depend on the processing

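With 2 mice per group, the spread rests on few values and an exact test cannot pass 0.05. Leaving out a mouse leaves 1 in its group, which is then assumed to vary like the other group. DESeq2 called 5 of the 9 genes and 7 of the other erythroid genes, beside 700 of all 14492 genes tested. By edgeR these counts were 0 and 0. Without a filter, edgeR called 2 of the 9 genes, beside 61 of all 28242 genes tested. Upper-quartile normalization, library totals, the filter of 10 counts in each library and omission of globins from library sizes left both edgeR counts at 0. Without each replicate in turn, 0 to 0 of the 9 genes and 0 to 0 of the other erythroid genes were called. The median of the latter ranged from 0.06 to 0.14, the log2 ratio of summed adult globins from 1.87 to 2.83, and the difference in embryonic share from 0 to 0 percent (beta-like) and 0 to 0.0278 percent (alpha-like).

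The log2 fold changes of the 5 tested members stayed positive in all settings, between 1.48 and 3.16. Their adjusted p ranged from 5.76e-11 (Hbb-bs, DESeq2) to 0.829 (without Qa-2- replicate 2). Some genes near 0 changed sign. Ldb1 was at -0.018 on library totals. Without each replicate in turn, log2 fold changes ran from -0.13 to 0.23 for Ldb1, from -0.44 to 0.46 for Car2, from -0.14 to 0.35 for Bnip3l, from -0.27 to 0.38 for Tmcc2 and from -0.83 to 0.17 for Tspan33. Bcl11a was at 0.29 without WT replicate 1 and at -0.44 without Qa-2- replicate 1, and did not pass the filter without either of the other libraries. The cause was not tested.

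The mice share only a number across groups. Same-numbered samples deviated in opposite directions (correlation across genes -0.37). With the replicate block, 0 of the 9 genes were called, with log2 fold changes from 2.03 (Alas2) to 2.55 (Hbb-bs) and adjusted p from 0.376 to 0.480, the median of the other erythroid genes was 0.09, and Car2 was at 0.0051. With the crossed pairing as a block, added after seeing the data, 0 of the 9 were called (adjusted p 0.0695 to 0.0752), and Car2 was at 0.0042.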
